A study of Oryza sativa with 6 samples.

Results

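The 41 genes described here are the rice genes annotated as basic leucine zipper (bZIP) transcription factors, among them the factors that bind abscisic acid responsive elements. They were taken from the 1177 genes of the expression tables, most of them transcription factor genes, by the words bZIP, basic leucine or abscisic acid responsive element in their descriptions, and carry 41 distinct locus numbers. A bZIP protein binds DNA with a basic region and pairs through a leucine zipper, and many bind elements with an ACGT core. This core lies in the abscisic acid responsive element and in the G-box, CACGTG, which PIF-type basic helix-loop-helix factors also bind. Abscisic acid is the hormone that rises in drought and closes stomata. The kinases it sets free phosphorylate bZIP factors of the AREB/ABF type, which then switch on drought genes.

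The material was leaf of potted rice plants, 3 weeks old, all of them kept in fluctuating light with drought. The groups were a line labelled PIF4-OE with a PIF4-GFP genotype (3 libraries) and a mock labelled GFP (3 libraries). PIF4 is a basic helix-loop-helix factor that phytochromes restrain in light, and the fused GFP serves as the handle for chromatin immunoprecipitation. The genotype labels are numbered like the libraries, so a number may stand for a replicate or for a separate line, and the promoter of the transgene is not stated in the labels. Peaks were deposited as 1 list of 29513 regions named after PIF4-GFP1, without a mock list, and expression as 6 tables of FPKM (fragments scaled to transcript length and library size). The recovered library totals ran from 14933740 to 17919095 reads. No row of the tables names a chlorophyll a/b binding, ribulose bisphosphate carboxylase, photosystem, root-specific or nitrate transporter gene, so the leaf label could not be checked against markers.

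Most bZIP genes had a listed PIF4-GFP peak at their start. A promoter peak was assigned to 33 of the 41 (80.5%, Wilson 95% interval 66.0 to 89.8%), where the share among all 1177 genes was 71.8%. A peak of any class was assigned to 36 (87.8%, 74.5 to 94.7%), against 77.4% of all genes. The interval of the bZIP share holds the background share, and with 1 list and no score per peak there is no replicate error and no test of a difference. Intervals cover counting error only. WRKY genes had a promoter peak in 55 of 72 cases (76.4%), NAC genes in 34 of 48 (70.8%) and helix-loop-helix genes in 38 of 55 (69.1%), and their intervals overlapped that of the bZIP genes.

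**Figure D1:**
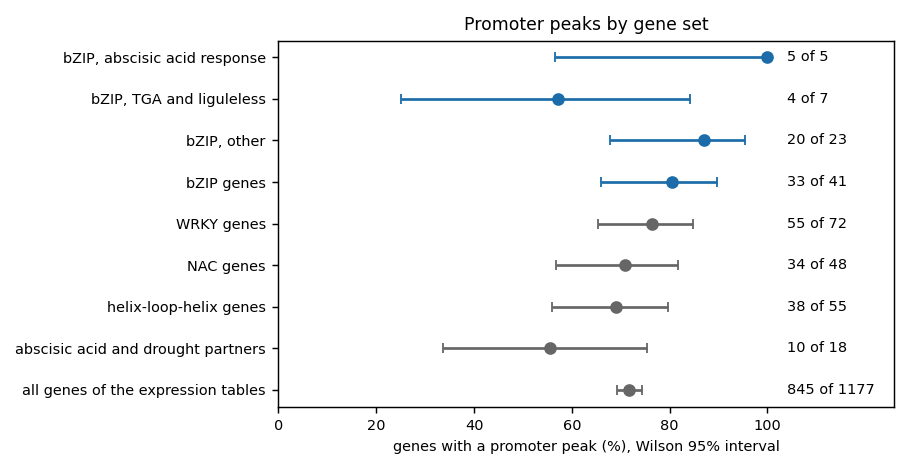
Share of genes with a promoter peak in percent (x axis, points) with its Wilson 95% interval (bars) for bZIP genes and their groups (blue) and for other gene sets of the tables (grey), with counts at the right. The bZIP share of 33 of 41 lies above the 845 of 1177 of all genes, but its interval holds that share.

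The bZIP genes were seldom marked more than once. The 36 genes with peaks held 41 in all, 33 classed as promoter, 4 as intron, 2 as exon and 2 as transcription end. Only 4 of the 41 genes had 2 or more peaks (9.76%, Wilson 95% interval 3.86 to 22.6%), where 16.8% of all genes did, although 29 of 41 bZIP genes (70.7%) spanned more than 2000 bp against 61.4% of all genes. The interval again holds the background share. WRKY genes, fewer of which spanned 2000 bp (48.6%), had 2 or more peaks in 19 of 72 cases (26.4%, 17.6 to 37.6%). NAC genes, of which 54.2% spanned more than 2000 bp, had them in 7 of 48 cases (14.6%, 7.2 to 27.2%). Helix-loop-helix genes, of which 80% spanned more than 2000 bp, had them in 9 of 55 cases (16.4%, 8.9 to 28.3%). The interval of each of these families overlapped that of the bZIP genes, so a low share particular to bZIP genes is not shown. An exon or intron peak lay in 5 bZIP genes (12.2%), near the background of 14.6%.

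Most promoter peaks of bZIP genes lay over the start and were centred a little inside the gene. The list and the tables do not always place a start at the same base. By the list, the median centre lay 306 bp downstream of the start, with quartiles of 84 and 541 bp. Of the 33 peaks, 31 (93.9%, Wilson 95% interval 80.4 to 98.3%) were centred downstream of the start. For the other genes of the tables this share was 78.7% (636 of 808 peaks) and for the whole list 69.2%. By the start in the tables, 27 of 33 were centred downstream (81.8%, 65.6 to 91.4%) and 563 of 808 peaks of the other genes (69.7%), so the bZIP interval then holds the other genes' share. The start was covered by 30 of the 33 peaks under either placement (90.9%, 76.4 to 96.9%). For the other genes of the tables this share was 83.5% by the list and 80.8% by the tables. For the whole list it was 87.3%, and the bZIP interval holds each of these shares. The peaks of LG2 and Os09g0474000 missed both starts, that of Os03g0796900 missed the start of the list and that of Os12g0601800 the start of the tables. With a limit of 2000 bp from the start in the tables, still 33 of 41 bZIP genes had a promoter peak, against 69.5% of all genes. At the median a peak began 377 bp upstream of the list's start and ended 870 bp downstream. The shares centred downstream are given without a test, since they were described after the positions were seen.

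Promoter peaks of bZIP genes were between 400 and 5400 bp wide. The median was 1400 bp with quartiles of 1200 and 1800 bp. The other genes of the tables had a median of 1600 bp with quartiles of 1000 and 2400 bp, and the whole list one of 1400 bp with quartiles of 800 and 2200 bp. The most common width was 1400 bp, in 9 of 33 peaks. A promoter peak at least 1000 bp wide lay at 26 of the 41 genes (63.4%), against 57.7% of all genes. At least 2000 bp were reached by 8 of 33 (24.2%, Wilson 95% interval 12.8 to 41%), against 38.1% for the other genes of the tables and 33.3% for the whole list, both of which lie in the interval. The narrowest, 400 bp at Os09g0474000, lay wholly inside the gene and was centred 266 bp from its start. A single peak exceeded 5000 bp, and it belonged to an abscisic acid response factor.

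**Figure D2:**
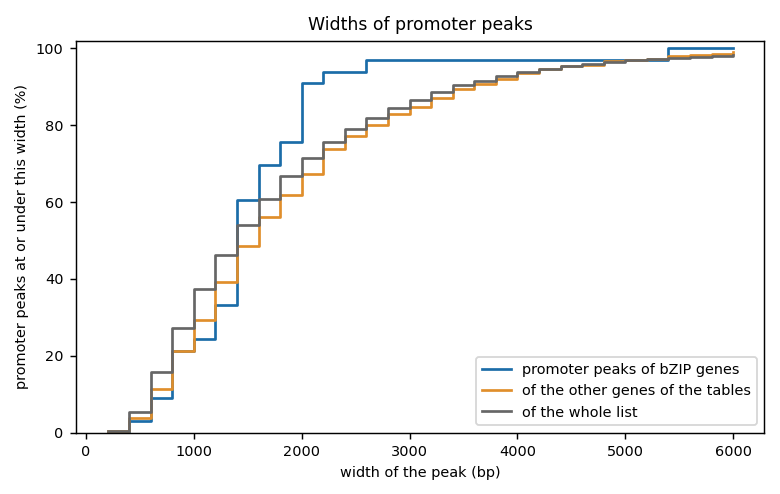
Cumulative share of promoter peaks in percent (y axis) at or under a given width in bp (x axis, up to 6000 bp) for bZIP genes (blue), the other genes of the tables (orange) and the whole list (grey). The blue line crosses the others near 1400 bp and rises faster to 2000 bp, above which only 3 of the 33 bZIP peaks lie.

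The abscisic acid response factors all carried a promoter peak. This group holds the 3 genes described as factors binding abscisic acid responsive elements and the genes similar to TRAB1 and ABI5, which are named for the hormone response. All 5 of 5 had a promoter peak (71.8% of all genes), and each of these peaks covered the start. Of all genes, 66.9% had their start under a listed peak. All 5 promoter peaks were also at least 1000 bp wide (57.7% of all genes had such a peak), and the narrowest was 1400 bp. With 5 genes the Wilson 95% interval reaches down to 56.6%, so none of these shares can be told from those of all genes.

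Os02g0766700 (LOC_Os02g52780), named AREB1, ABF2 and OsBZIP23 in RefSeq and similar to AREB2 in the tables, had the widest peak of all bZIP genes. OsBZIP23 is a regulator of drought and salt tolerance in rice. The peak of 5400 bp lay on chromosome 2 from 32280400 to 32285799. It ran from 4146 bp upstream of the start to 1254 bp inside the gene, and was centred upstream by the list (-1446 bp) as well as by the tables (-1519.5 bp). Of the 33 bZIP promoter peaks, 2 were centred upstream by the list and 6 by the tables. In the list, 650 of 23278 promoter peaks were at least as wide. A 3800 bp promoter peak of the neighbouring LOC_Os02g52770, from 32272800 to 32276599, ended just short of the other end of the gene (32276662).

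The gene described as similar to AREB1, Os06g0211200 (LOC_Os06g10880), had a peak of ordinary size, 1400 bp on chromosome 6 from 5676800 to 5678199. It ran from 281 bp upstream to 1119 bp downstream of the start. TRAB1 (Os08g0472000, LOC_Os08g36790), a rice factor found through its binding to the seed maturation regulator VP1, had a 1600 bp peak on chromosome 8 from 23233600 to 23235199. That peak was centred 2 bp from the start, with 798 bp upstream and 802 bp downstream, so it was nearly symmetric. The gene similar to ABI5 (Os09g0456200, LOC_Os09g28310), a factor that in Arabidopsis arrests growth after germination, had a 1400 bp peak on chromosome 9 from 17189600 to 17190999.

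Os07g0686100 (LOC_Os07g48660), also described as binding abscisic acid responsive elements, was the 1 gene of the group with more than 1 peak. On chromosome 7 its promoter peak, 2000 bp from 29144600 to 29146599, began 296 bp upstream of the start and reached 1704 bp into a gene of 2143 bp. A second peak of 600 bp, from 29147600 to 29148199, was classed as transcription end. It lay wholly beyond the end of the gene in the tables (29147037). The promoter peak alone covered 79.6% of the gene, where the other 4 genes of the group had between 11.8% and 24.0% of their span covered.

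**Figure D3:**
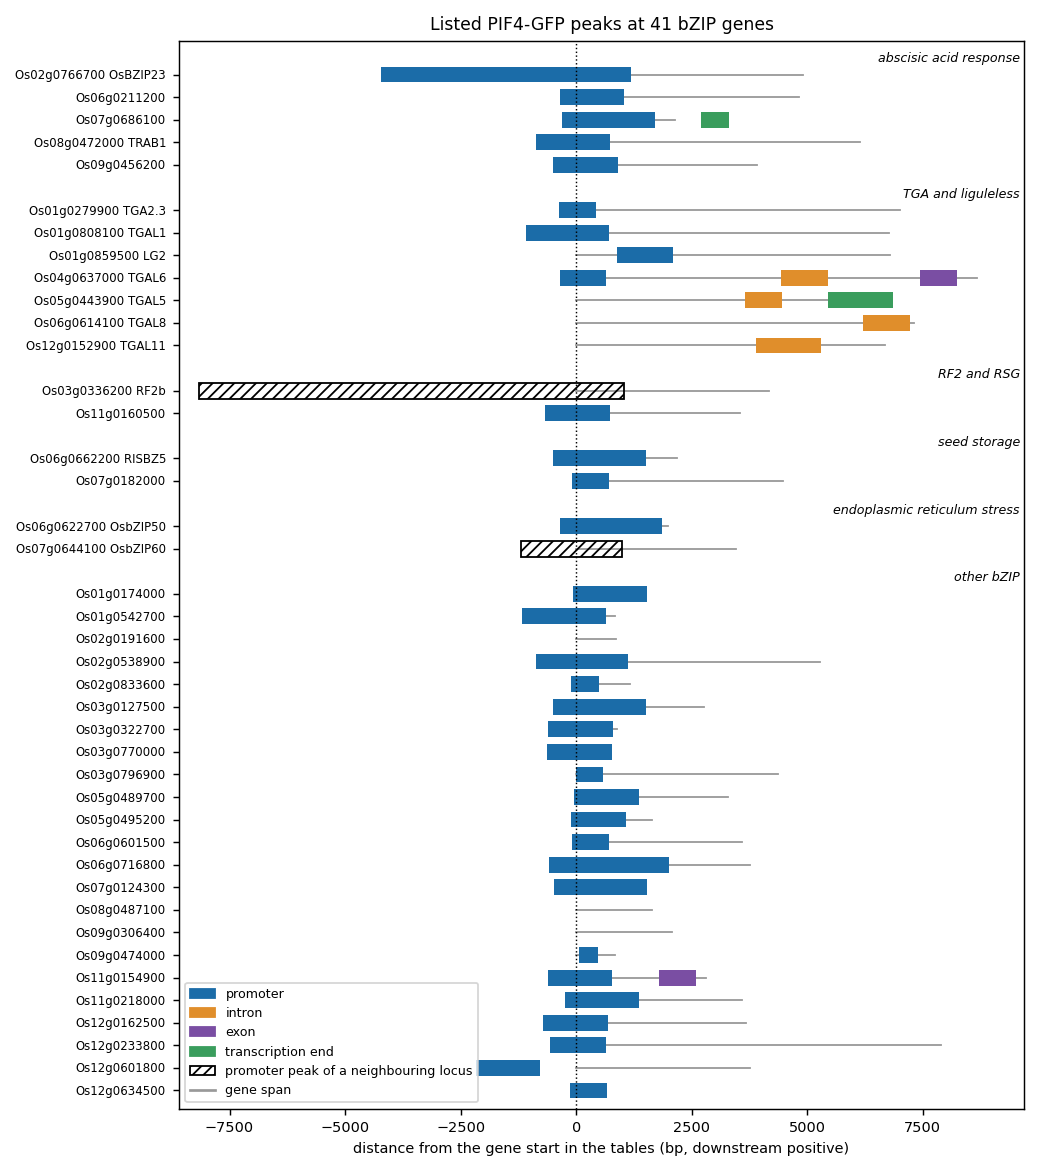
Listed peaks at the 41 bZIP genes, placed by bp from the gene start in the tables (x axis, downstream positive). Grey lines are gene spans, filled bars peaks of the gene's own locus by class, and hatched bars peaks of a neighbouring locus that cover the gene's start. Other peaks of neighbouring loci are not drawn. Most bars lie over the start, the OsBZIP23 bar reaches 4 kb upstream, and 3 TGA genes have bars only deep in the gene or at its end.

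In the TGA and liguleless group, 3 of 7 genes had peaks but none at the promoter. TGA factors bind TGACG elements and, in Arabidopsis, act with NPR1 in salicylic acid defence, while LG2 is known in maize for placing the boundary of blade and sheath. The group holds 7 genes named so in their descriptions or in RefSeq, all of them long, between 5742 and 8680 bp. Each of the 7 had a peak (Wilson 95% interval 64.6 to 100%, against 77.4% of all genes). Only 4 had a promoter peak (57.1%, Wilson 95% interval 25.05 to 84.2%, against 71.8% of all genes). Both intervals hold the share of all genes. The 3 bZIP genes that had peaks but none at the promoter all belonged to this group, where 5.61% of all genes had this layout. The layout was noticed after the data were seen, and it was not compared with other genes of equal length.

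TGAL6 (Os04g0637000, LOC_Os04g54474) had 3 peaks, the most of any bZIP gene. On chromosome 4 they were a promoter peak from 32403000 to 32403999, a peak in intron 3 of 10 from 32407800 to 32408799 and a peak in exon 10 of 11 from 32410800 to 32411599. TGAL5 (Os05g0443900, LOC_Os05g37170) had an 800 bp peak in intron 11 of 13 from 21722400 to 21723199 on chromosome 5 and a 1400 bp peak at its transcription end from 21724200 to 21725599. The list places the start of TGAL5 at 21715716, about 3 kb before the tables (21718749). That listed start lies under a promoter peak assigned to the neighbouring LOC_Os05g37160, from 21714800 to 21716199. Its locus number is also shared with Os05g0443850, a row of hypothetical genes.

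TGAL8 (Os06g0614100, LOC_Os06g41100) had a single 1000 bp peak in intron 9 of 9, from 24561400 to 24562399 on chromosome 6 and 6715 bp from its start. TGAL11 (Os12g0152900, LOC_Os12g05680) had a single 1400 bp peak in intron 10 of 12, from 2607200 to 2608599 on chromosome 12. LG2 (Os01g0859500, LOC_Os01g64020) was classed with the promoter, but its peak from 37186200 to 37187399 on chromosome 1 was centred 1781 bp inside the gene and left the start uncovered. The remaining genes had ordinary starts: TGA2.3 (Os01g0279900) an 800 bp peak centred 133 bp downstream, and TGAL1 (Os01g0808100) the widest of the group, 1800 bp from 34312600 to 34314399 on chromosome 1.

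Among the smaller groups, the endoplasmic reticulum stress genes were OsbZIP50 and OsbZIP60. OsbZIP50 (Os06g0622700, LOC_Os06g41770), whose messenger RNA is spliced by IRE1 in that stress, was covered over 93.2% of its length by a 2200 bp promoter peak from 25041600 to 25043799 on chromosome 6. OsbZIP60 (Os07g0644100, LOC_Os07g44950) had no peak of its own. Of the seed storage genes, RISBZ5 (Os06g0662200, LOC_Os06g45140) had a 2000 bp peak from 27300600 to 27302599 on chromosome 6, and the grain filling activator Os07g0182000 an 800 bp peak. The gene similar to RSG (Os11g0160500, LOC_Os11g06170), a tobacco activator of gibberellin synthesis, had a 1400 bp peak centred 27 bp from its start.

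The other 23 bZIP genes, described mostly by their domain alone, had a promoter peak in 20 cases (87.0%, Wilson 95% interval 67.9 to 95.5%, which holds the 71.8% of all genes). The widest, 2600 bp, lay at Os06g0716800 (LOC_Os06g50310) on chromosome 6 from 30454200 to 30456799. Os11g0154900 (LOC_Os11g05640) was the only one with a second peak, in exon 6 of 6 from 2562600 to 2563399 on chromosome 11. At Os12g0601800 (LOC_Os12g40920) the list and the tables placed the start differently. Its 1400 bp peak from 25330600 to 25331999 on chromosome 12 is centred at 649 bp by the list and at -1474.5 bp by the tables. The shortest bZIP gene, Os12g0634500 (530 bp), lay wholly under an 800 bp peak. This was so for 4 of 41 bZIP genes (9.76%) and for 13.1% of all genes, and at such genes a promoter peak is a peak over the whole gene.

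The 5 bZIP genes without a listed peak were RF2b, OsbZIP60, Os02g0191600, Os08g0487100 and Os09g0306400, and the starts of the first pair were nevertheless under a peak. Each peak in the list belongs to 1 locus, so a peak that spans neighbours counts for 1 of them. RF2b (Os03g0336200, LOC_Os03g21800), a rice factor described with disease resistance and vascular development, starts at 12452164 on chromosome 3. A 9200 bp promoter peak of LOC_Os03g21790, from 12444000 to 12453199, covered this start and 24.9% of the gene. OsbZIP60 starts at 26809800 on chromosome 7, under a 2200 bp promoter peak of LOC_Os07g44940 from 26808600 to 26810799 that covered 29.0% of the gene. Among all genes of the tables without a peak, 54 of 266 (20.3%) had their start under a peak of another locus. With any locus counted, 32 of 41 bZIP starts in the tables (78.0%) and 66.9% of all starts lay under a listed peak.

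The other 3 genes had their starts outside every listed peak. The nearest peak lay 4736 bp from the start of Os08g0487100, 4837 bp from that of Os02g0191600 and 18390 bp from that of Os09g0306400. Peak numbers run in genome order on every chromosome, and many numbers are missing from the list as a whole. They reach at least 59979 (at Os12g0634500), while 29513 peaks are listed. Missing numbers around other genes were not counted, so whether the gaps below are usual cannot be said. Os08g0487100 (LOC_Os08g38020), similar to the tobacco factor BZI-2, lay between peaks numbered 43752 and 43759, so 6 numbers are missing there. Around Os09g0306400 (LOC_Os09g13575) 5 numbers are missing and around Os02g0191600 (LOC_Os02g09830) 1. The listed peaks on either side lay 4736 and 23865 bp from the start of Os08g0487100. For Os09g0306400 these distances were 18390 and 32011 bp, and for Os02g0191600 4837 and 6764 bp. Whether a missing number marks a region at these genes was not tested. Among the TGA genes without a promoter peak, 5 numbers are missing around the start of TGAL11, between 56495 and 56501, and 0 around those of TGAL5 and TGAL8. The flanking peaks lay 3890 and 23111 bp from the start of TGAL11. They lay 2550 and 3651 bp from that of TGAL5 and 6215 and 2586 bp from that of TGAL8.

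Possible partners of these factors in abscisic acid and drought transcription were counted by words such as VP1, DREB, CBF, dehydration-responsive and drought in their descriptions. A matching word does not show that a gene acts in that programme. ICE1 (Os01g0928000), described as an inducer of CBF expression, was among the matches. Of 18 such genes, 10 had a promoter peak (55.6%, Wilson 95% interval 33.7 to 75.4%, which holds the 71.8% of all genes), and 1 more, a nuclear factor Y subunit matched by the letters CBF, had a peak elsewhere. The widest lay at Os02g0752800, similar to DREB2B, with 3200 bp, and at Os08g0545500, similar to DREB1J, with 2800 bp. The ABI3/VP1 family gene Os08g0101000, described with iron deficiency, and the NAC gene Os11g0126900, described with drought tolerance, had peaks of 1200 and 1400 bp. No peak was assigned to the other 7. The starts of DRE binding protein 2 (Os01g0165000) and of the gene similar to viviparous8 (Os03g0790600) lay under a peak of another locus. Those of Os02g0656600 and Os05g0346200, both similar to DREB2B, of Os04g0648900 (DREB2F), Os09g0522000 (DREB1B) and Os09g0522100 (DREB1H) lay under none.

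Transcript values labelled with bZIP names did not separate PIF4-GFP from mock. Before any value is read, the label has to be weighed: the deposited values resolve into whole reads over 1 length per row, and these lengths did not follow the genes on the rows. Over 917 resolved rows the rank correlation of length and gene span was 0.02 (a description across rows), and in 191 rows (20.8%) the length exceeded the whole gene. Of 32 resolved bZIP rows this held for 4. Os12g0634500 had an implied length of 1209 bp in a gene of 530 bp, Os09g0474000 1254 in 837 bp, Os05g0495200 2700 in 1640 bp and Os06g0622700 2217 in 1991 bp. A gene name beside an FPKM value below therefore only says which row was read.

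Of the 41 rows, 8 were listed at 0 in all libraries, among them the labels Os07g0686100 and Os09g0456200 of the abscisic acid group. The other 3 labels of that group had similar values in all libraries. The row Os02g0766700 (OsBZIP23) had 21.5, 21.6 and 22.7 FPKM in PIF4-GFP and 22.8, 22.2 and 24.8 in mock. Its log2 difference on the log2(FPKM + 1) scale was -0.08 (SE 0.09, limma adjusted p = 0.895). Centring each library on its median brought it to -0.0023, and leaving out 1 library to between -0.11 and -0.036. The groups overlapped, since the highest PIF4-GFP value lay above the lowest mock value.

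The row Os06g0211200 (similar to AREB1) had 62.5, 60.1 and 67.8 FPKM in PIF4-GFP and 69.0, 63.2 and 71.8 in mock, which is a log2 difference of -0.10 with SE 0.08 (adjusted p = 0.895 by limma) that centring brought to -0.018. The row Os08g0472000 (TRAB1) had 50.5, 47.7 and 55.7 FPKM in PIF4-GFP and 53.9, 52.5 and 53.7 in mock, which is a log2 difference of -0.06 with SE 0.08 (adjusted p = 0.895 by limma). The difference became 0.02 once each library was centred on its median. Both rows overlapped between the groups, and in both rows the second library was the lowest of PIF4-GFP and also the lowest of mock.

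After rows under 1 FPKM in more than 3 libraries were left out, 31 bZIP rows entered limma. At the adjusted threshold of 0.05, 0 of them passed, and 0 were under 0.05 before adjustment. Among all 847 rows, 0 passed (0.0%), and 33 were under 0.05 before adjustment. The median log2 difference of the bZIP rows was -0.04, with 25 lower and 6 higher in PIF4-GFP. That of all 847 rows was -0.06, with 673 lower and 174 higher, a similar split. After centring, which moved the median of all rows to 0.02, 12 bZIP rows were lower and 19 higher. Of all rows, 362 were then lower and 485 higher. In 2 bZIP rows all PIF4-GFP values lay under all mock values, and in 0 above. Over all rows this was so for 7.91% and 1.18%.

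Those rows were Os09g0474000 and Os06g0622700, both with an implied length above their gene span. Os09g0474000 had 11.3, 11.3 and 11.3 FPKM in PIF4-GFP and 13.5, 12.0 and 13.4 in mock, which is a log2 difference of -0.18 with SE 0.10 (adjusted p = 0.895 by limma). Its exact permutation p, two-sided, was 0.1, the smallest that 3 against 3 libraries allow. Os06g0622700 (OsbZIP50) had 20.8, 19.6 and 21.8 FPKM in PIF4-GFP and 22.1, 21.9 and 23.9 in mock, which is a log2 difference of -0.12 with SE 0.09 (adjusted p = 0.895 by limma).

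Besides Os09g0474000, the lowest log2 differences were those of Os12g0162500 (-0.26, SE 0.22), Os11g0218000 (-0.25, SE 0.15) and Os12g0152900 (-0.19, SE 0.12), and all overlapped between the groups. In recovered reads per library, Os12g0162500 rests on only 9 to 19, Os11g0218000 on 36 to 60 and Os12g0152900 on 1624 to 2236. Leaving out 1 library gave values from -0.51 to -0.072 for Os12g0162500, from -0.37 to -0.098 for Os11g0218000 and from -0.33 to -0.067 for Os12g0152900. Os12g0152900 (TGAL11) was also the highest row, with 333.7, 285 and 410.8 FPKM in PIF4-GFP and 410.4, 336.5 and 422.2 in mock. Next to it, the rows Os08g0487100, Os06g0716800, Os03g0336200 (RF2b), Os07g0182000 and Os06g0662200 (RISBZ5) averaged between 90.5 and 108 FPKM over the 6 libraries, with log2 differences from -0.04 to -0.01. The highest log2 differences were 0.13 at Os03g0796900 (SE 0.16), which rests on 18 to 33 recovered reads per library, 0.07 at Os02g0833600 (SE 0.11), 0.03 at Os12g0233800 (SE 0.11) and 0.01 at Os12g0601800 (SE 0.16). At Os12g0601800 the mean FPKM was slightly lower in PIF4-GFP (8.48) than in mock (8.58), so the sign of its difference depends on the scale.

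**Figure D4:**
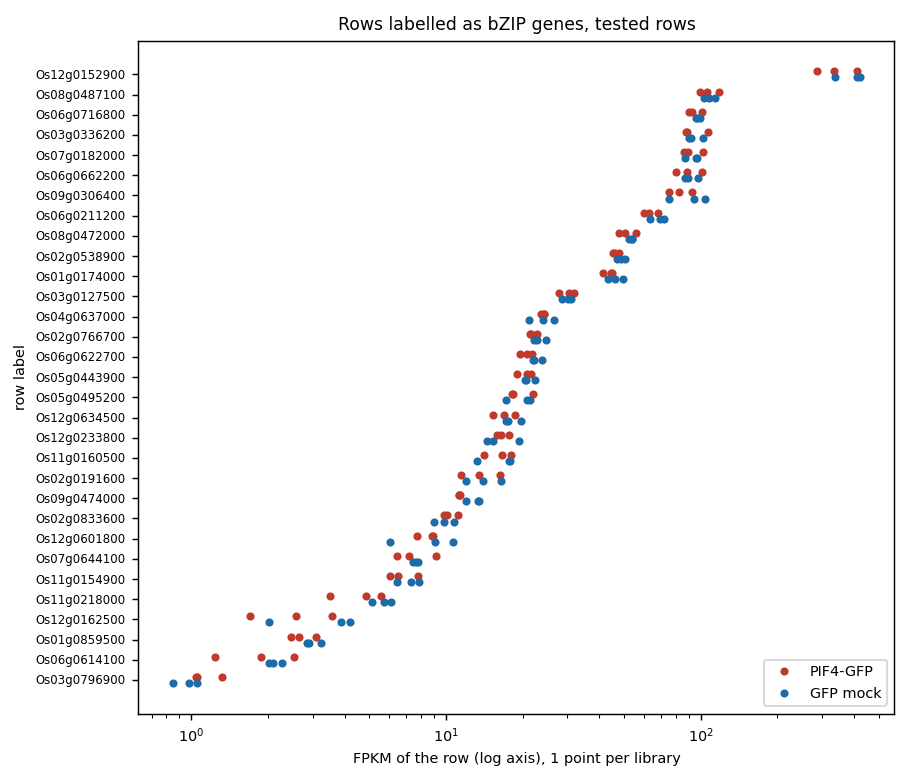
FPKM (x axis, log scale) of the 31 tested rows labelled as bZIP genes (y axis, ordered by mean), 1 point per library, PIF4-GFP in red and GFP mock in blue. The points of both groups lie over each other in all rows but Os09g0474000 and Os06g0622700, and the row means run from 1.05 to 366 FPKM.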

How the data were processed

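The members and gene lists were chosen with earlier results of these data known. The authors deposited peak positions, class and distance to the transcription start, with no score. The authors deposited 1 FPKM value per gene and library, a unit read from the values. The submitters' processing notes name Bowtie 0.12.2, HISAT2 2.0 and StringTie 1.3.0 and a mouse build, with no role. For the rice build and the peak caller the labels name nothing. The locus number tied each peak to a gene: all 41 bZIP peaks shared chromosome and strand with the tables, and 36 had a distance within 500 bp of that computed from the tables. Shares have Wilson 95% intervals. RefSeq (assembly ASM3414082v1) matched 35 of 41 genes and served for names. Totals and reads were recovered as whole numbers (tolerance 0.0001). For the group comparison, log2(FPKM + 1) values of the rows that reached 1 FPKM in 3 libraries went into limma 3.58.1 under R 4.3.3, with a trended prior and Benjamini-Hochberg adjustment over all of those rows. The same step was tested on simulated data. Labels do not say that replicates were separate plants, so p-values measure the spread between these libraries, which may be technical. Named genes follow a rule: the abscisic acid group, in other groups those with the widest peak, 2 or more peaks or none, and rows with the highest levels and largest differences. LG2, TGAL8, TGAL11, TGA2.3, Os12g0601800 and the shortest genes were named after their values were seen. Other steps ran in Python 3.11.15 (pandas 2.3.3, scipy 1.17.1, numpy 2.4.6, figures in matplotlib 3.10.9).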

Additional observations from a re-analysis of the deposited data

How the results depend on the processing

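The share of bZIP genes with a promoter peak was 80.5%, and it fell to 63.4% (57.7% of all genes) when peaks had to be at least 1000 bp wide. It lay between 78.0% and 87.8% with any class counted, within 2000 bp of the start in the tables, per locus, with the word bZIP alone and, chosen after the data were seen, with the start under a peak of any locus. The median width was 1400 bp throughout. Position depended on the start: 31 of 33 promoter peaks were centred downstream by the list and 27 by the tables, an alternative also chosen after the data were seen. Over all rows 0 passed limma, and 1 passed with the replicate number as a block (replicate block), 0 of them bZIP. With the block, 89 of all rows were under 0.05 before adjustment in limma, against 33 without it. Same-numbered libraries had correlations of deviations of 0.111, 0.156 and -0.088. With 3 libraries per group these values cannot decide whether the numbers pair the libraries. Leaving out 1 library gave 0 to 2 rows, the 2 without PIF4-GFP replicate 2, and 0 bZIP rows in each case. No bZIP row passed with a pseudocount of 0.1, no filter, centring or voom on the recovered reads. Of 176 values of the named rows under alternatives, 24 changed sign, none of them called. Centring gave 0.068 for Os03g0336200, 0.0497 for Os06g0662200, 0.0402 for Os06g0716800, 0.072 for Os07g0182000, 0.021 for Os08g0472000 and 0.071 for Os08g0487100. Leaving out 1 library gave -0.11 to 0.043 for Os03g0336200, -0.12 to 0.051 for Os06g0662200, -0.078 to 0.041 for Os07g0182000, -0.076 to 0.049 for Os08g0487100, -0.045 to 0.15 for Os12g0233800 and -0.19 to 0.17 for Os12g0601800. Among the named rows that kept their sign, centring moved Os09g0474000 to -0.10, Os11g0218000 to -0.17, Os12g0152900 to -0.11, Os12g0162500 to -0.18, Os02g0833600 to 0.15, Os03g0796900 to 0.20, Os12g0233800 to 0.11 and Os12g0601800 to 0.092. The cause was not tested. With 1 list, no depth or replicate error of a peak is known.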

Other observations

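The 41 bZIP genes lay on 11 of the rice chromosomes, with the most, 6, on chromosome 6. All 5 genes on chromosome 1 and all 3 on chromosome 11 had a promoter peak, and the counts elsewhere were 4 of 5 on chromosomes 3 and 12, 5 of 6 on chromosome 6, 3 of 4 on chromosomes 2 and 7, 2 of 3 on chromosomes 5 and 9, 1 of 2 on chromosome 8 and 1 of 1 on chromosome 4. Over all chromosomes 71.8% of all genes had a promoter peak, and their shares per chromosome were not counted. A peak of another locus lay within 2000 bp of 16 of the 41 genes, and 4 of them were overlapped by one. Neighbouring peaks were not counted for all genes, so whether these counts are usual cannot be said. At Os12g0233800 (LOC_Os12g13170), 7887 bp long, an 800 bp promoter peak of LOC_Os12g13160 lay wholly inside the gene near its far end, from 7330200 to 7330999 on chromosome 12. At Os03g0796900 (LOC_Os03g58250) a transcription end peak of LOC_Os03g58240 overlapped 571 bp of the gene. By the tables, the bZIP genes had 61.6% of the 2 kb around their start under listed peaks at the median, and all genes 53.2%.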
